A study of Rattus norvegicus with 6 samples.

Results

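The genes described here are the ligands, storage proteins, receptors, Smad transducers, antagonists and Id targets of transforming growth factor beta (TGF-beta), bone morphogenetic protein (BMP) and activin signalling in rat pancreatic islets, the small organs that hold the insulin-secreting beta cells. They were chosen by symbol alone (names beginning Smad, Smurf, Bmp, Bmpr, Tgfb, Acvr, Inha, Inhb, Ltbp or Gdf, with Id1 to Id4 and a few secreted antagonists), which took 65 of 17055 gene rows. Messenger RNA of whole Sprague-Dawley rat islets was sequenced in an adult group (3-month-old males, 3 libraries) and a P10 group (10-day-old pups, 3 libraries). All source names call the rats controls. The labels give no sex for the pups and do not say whether islets of several animals were pooled. Age and any difference in sex between the groups therefore cannot be told apart, and p-values measure the spread between labelled biological replicates. The comparison addresses how islet mRNA levels differ between suckling pups and mature animals.

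Ligands of this family are secreted dimers. TGF-beta leaves the cell in a latent complex that latent TGF-beta binding proteins anchor in the extracellular matrix until it is freed. A freed ligand joins a type II and a type I receptor kinase, and the type I receptor phosphorylates a receptor-regulated Smad, which enters the nucleus with Smad4. TGF-beta and activin act mainly through Smad2 and Smad3, BMPs through Smad1, Smad5 and Smad9, with the Id genes among the best-known BMP targets. In the pancreas the family is known for roles in lineage choice before birth and in beta-cell growth and insulin secretion after it.

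In adult islets 2 of the 3 TGF-beta ligands and all 4 latent TGF-beta binding proteins were called lower than at P10. Tgfb1 and Ltbp3 each lost the call in 5 of 13 alternative analyses, and Ltbp1 in 1. No type I or type II receptor was called. Of 8 Smads 1 was, Smad3, which lost the call in 1 of the 13 analyses. The receptor Tgfbr2 fell just short of a call, at a log2 fold change, adult over P10, of -1.39. Whether the roles differ was not tested. Of the 65 rows, 8 had no count in any library, 13 had counts but too few to be tested, and 44 were tested. A gene is called here when edgeR's quasi-likelihood test, run on all 10124 tested genes, gave a Benjamini-Hochberg false discovery rate (FDR) under 0.05. In adult islets 1 of the 44 was called higher, Gdf15, and 13 were called lower, among them Tgfb1, Tgfb3, Ltbp1, Ltbp2, Ltbp3, Ltbp4, Bmp1, Tgfb1i1, Tgfbr3, Smad3, Smurf1 and Id2. Over all tested genes 12.5% were called higher and 13.8% lower, or 26.3% in either direction. Of the 44, 2.27% were called higher and 29.5% lower, or 31.8% in either direction. The adult and P10 libraries did not overlap in 20 of the 44, or 45.5%, against 42.3% of all tested genes. Of the 44, 5 were both called and at least 4-fold lower in adults, or 11.4%, against 4.25% of all tested genes. The median log2 fold change, adult over P10, was -0.45 over the 44 and -0.03 over all tested genes. A member scarce in adults passed the filter only through its P10 counts, so these figures describe the tested members and not the family.

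Gene counts per library ran from 3307415 to 6477825. Levels below are in normalised CPM, counts scaled to each library's size by trimmed mean of M values factors. On that scale 3 counts, taken as the limit that a count of 0 allows, were worth 0.407 to 1.0995 CPM. Islet identity was checked by markers: the 6 beta-cell markers with a row were all called higher in adults, with a summed level of 538379 to 671500 CPM in adults and 227624 to 296886 CPM at P10. P10 replicate 1 was the deepest library but had the fewest genes with a count, 11182, against 11342 to 12369 in the other 5. All changes are relative to the bulk of genes: with library totals alone the log2 fold changes shifted by a median of -0.49, and 25 members were then lower and 1 higher, where 35.7% of all tested genes were lower and 3.39% higher.

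Markers of several other cell types also differed between the ages. The counts of called markers stand beside 13.8% of all tested genes called lower in adults and 12.5% called higher. In either direction the share was 26.3%. All 8 tested fibroblast markers were lower in adults, and the list summed to 225 to 307 CPM in adults and 2643 to 3396 CPM at P10, 11.8-fold apart in the means. Of its 9 rows Col1a2 alone had no count in any library. Of 6 tested smooth muscle and pericyte markers 5 were lower, with sums of 76.4 to 115 CPM in adults and 348 to 436 CPM at P10. All 5 tested duct markers were lower, with sums of 726 to 945 CPM in adults and 2195 to 2466 CPM at P10. Of 9 endothelial markers 2 were lower, with sums of 116 to 174 CPM in adults and 197 to 305 CPM at P10, and of 8 tested macrophage markers 2 were lower, with sums of 77.0 to 134 CPM in adults and 85.3 to 168 CPM at P10. Of 3 tested Schwann-cell markers 2 were lower, with sums of 13.0 to 28.6 CPM in adults and 40.8 to 79.8 CPM at P10. The single tested lymphocyte marker was not called. The 5 rows of its list summed to 1.04 to 3.49 CPM in adults and 3.71 to 22.0 CPM at P10. Among endocrine lists, alpha-cell markers summed to 13745 to 18502 CPM in adults and 24987 to 27950 CPM at P10, with 1 of 5 called higher and 1 lower. Ppy, the PP-cell marker, was higher, at 3152 to 5626 CPM in adults and 1623 to 1876 CPM at P10, and none of 3 delta-cell markers was called. Of 7 acinar markers 3 were higher and 2 lower, with sums of 545 to 2420 CPM in adults and 1079 to 1553 CPM at P10. In whole islets, fewer cells of a type and less RNA per cell cannot be told apart, and the part of these lists in the members' results was not tested.

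**Figure D1:**
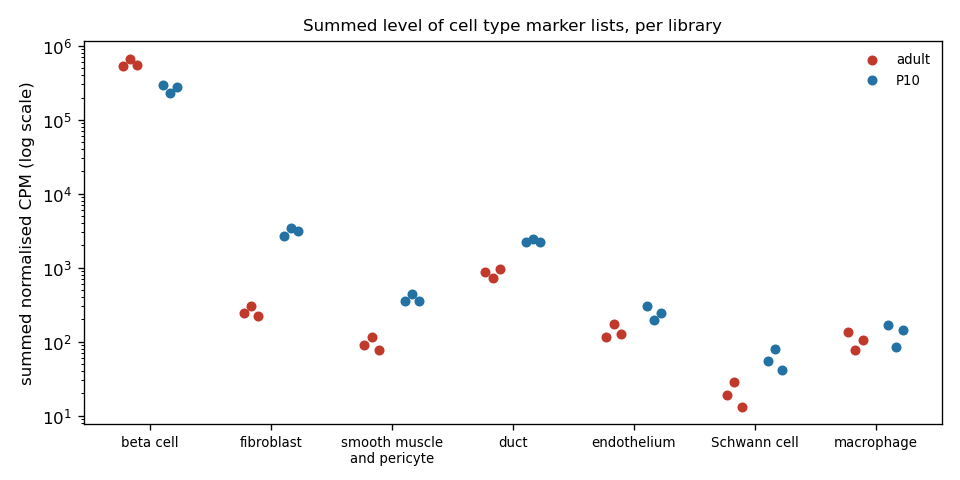
Summed level of each cell type marker list in normalised CPM on a log axis, 1 point per library, with adult libraries left of P10 libraries. The fibroblast sums lie at 225 to 307 CPM in adults and 2643 to 3396 CPM at P10, and the macrophage sums of the 2 ages overlap.

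The sequences shown are those of the latent TGF-beta binding proteins and of the called TGF-beta ligands, all of which were called lower in adults. Each is a RefSeq promoter window of 300 bases, 250 before and 50 after the annotated start, on the GRCr8 build and read 5′ to 3′ on the gene's strand. The counts themselves rest on another build, rn5, and 50 of the 65 members matched a single window. Capitals mark matches, on either strand, to the Smad-binding letters CAGAC, the GC-rich Smad letters GGCGCC, the AP-1 letters TGANTCA and the cAMP response element TGACGTCA, which do not overlap here.
Ltbp1: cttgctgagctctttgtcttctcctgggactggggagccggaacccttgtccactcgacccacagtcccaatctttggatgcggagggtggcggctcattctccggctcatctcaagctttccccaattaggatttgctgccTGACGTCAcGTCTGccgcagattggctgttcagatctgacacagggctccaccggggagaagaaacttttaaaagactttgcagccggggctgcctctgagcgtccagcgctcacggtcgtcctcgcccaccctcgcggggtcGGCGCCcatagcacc
Ltbp2: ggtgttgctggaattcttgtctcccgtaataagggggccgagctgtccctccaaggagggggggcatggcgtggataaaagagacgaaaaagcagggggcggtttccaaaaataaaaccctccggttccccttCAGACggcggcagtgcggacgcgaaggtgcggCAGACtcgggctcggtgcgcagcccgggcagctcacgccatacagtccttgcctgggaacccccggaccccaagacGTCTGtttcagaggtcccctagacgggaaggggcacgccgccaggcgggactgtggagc
Ltbp3: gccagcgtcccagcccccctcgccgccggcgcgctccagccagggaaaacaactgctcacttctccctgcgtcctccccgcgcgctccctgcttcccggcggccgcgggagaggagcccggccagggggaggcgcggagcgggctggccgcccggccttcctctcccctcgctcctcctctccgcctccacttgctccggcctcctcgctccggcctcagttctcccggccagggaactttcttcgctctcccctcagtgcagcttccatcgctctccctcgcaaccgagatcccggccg
Ltbp4: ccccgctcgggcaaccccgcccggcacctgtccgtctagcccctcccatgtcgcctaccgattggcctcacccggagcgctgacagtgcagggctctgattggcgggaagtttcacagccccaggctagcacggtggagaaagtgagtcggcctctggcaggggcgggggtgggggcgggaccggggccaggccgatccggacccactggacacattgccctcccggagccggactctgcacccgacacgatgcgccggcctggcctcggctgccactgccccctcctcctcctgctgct
Tgfb1: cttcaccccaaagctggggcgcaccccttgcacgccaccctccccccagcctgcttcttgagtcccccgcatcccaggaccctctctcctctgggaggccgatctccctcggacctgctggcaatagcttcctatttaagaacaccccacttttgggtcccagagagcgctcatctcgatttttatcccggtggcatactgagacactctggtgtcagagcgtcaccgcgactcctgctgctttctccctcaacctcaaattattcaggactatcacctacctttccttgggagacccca
Tgfb3: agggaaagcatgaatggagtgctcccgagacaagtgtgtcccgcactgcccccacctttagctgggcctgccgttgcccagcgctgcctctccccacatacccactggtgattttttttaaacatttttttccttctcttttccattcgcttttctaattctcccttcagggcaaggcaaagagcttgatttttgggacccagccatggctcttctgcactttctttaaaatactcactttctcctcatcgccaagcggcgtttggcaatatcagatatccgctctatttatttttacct
The windows lie at chr6:26177252-26177551 (minus strand) for Ltbp1, chr6:110257249-110257548 (minus) for Ltbp2, chr1:212458955-212459254 (plus) for Ltbp3, chr1:91759758-91760057 (minus) for Ltbp4, chr1:90324062-90324361 (plus) for Tgfb1 and chr6:111456897-111457196 (minus) for Tgfb3. The Ltbp1 window holds 1 CAGAC, 1 GGCGCC and 1 TGACGTCA, the Ltbp2 window holds 3 CAGAC, and the other 4 hold none of the letters searched. Over all 33469 windows of this length, 50.1% hold CAGAC, 11.0% GGCGCC, 7.33% TGANTCA and 1.83% TGACGTCA. A match is a run of letters, not a shown binding site. The windows differ in base composition, with 73.0% G or C for Ltbp3 and 47.7% for Tgfb3, where the median of all windows is 51.7%. Over the 10 called-lower members with a single window the median was 66.8%, and over the 24 tested but uncalled members with one it was 62.8%.

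Of the 3 TGF-beta ligand genes 2 were lower in adult islets. Tgfb3 had 8.99, 2.93 and 2.20 CPM in adult replicates 1, 2 and 3, against 20.2, 28.4 and 26.2 CPM in P10 replicates 1, 3 and 4. Every adult library lay below every P10 library, with adult replicate 1 the highest of the adults. Tgfb3 was 5.54-fold lower (log2 fold change -2.47 ± 0.43, SE; edgeR FDR = 0.000532), and 9.88-fold lower without adult replicate 1. Tgfb1, the most widely expressed ligand of the group, had 17.6, 11.7 and 26.4 CPM in adults, against 46.2, 33.1 and 27.4 CPM at P10. The highest adult and the lowest P10 library nearly met. Its fall of 1.88-fold (log2 fold change -0.91 ± 0.28, SE; edgeR FDR = 0.0270) was lost without P10 replicate 1, P10 replicate 3, adult replicate 1 or adult replicate 2, with FDRs of 0.05004 to 0.119. Tgfb2 had 2.07, 0.733 and 9.73 CPM in adults, against 10.2, 14.3 and 9.47 CPM at P10. Adult replicate 3 lay within the P10 range and the other two adults far below it. Tgfb2 did not pass (log2 fold change -1.30 ± 0.60, SE; edgeR FDR = 0.125), but without adult replicate 3 it did, at a log2 fold change of -2.97 and an FDR of 0.00303. It also passed with library totals alone (edgeR FDR = 0.0255).

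All 4 latent TGF-beta binding proteins were lower in adults. Ltbp2, a matrix protein of elastic fibres that binds no latent TGF-beta itself, had 5.19, 6.60 and 4.04 CPM in adults, against 29.7, 41.2 and 30.6 CPM at P10. It was 6.58-fold lower (log2 fold change -2.72 ± 0.29, SE; edgeR FDR = 6.95e-06). Ltbp4 had 11.1, 13.9 and 10.8 CPM in adults, against 36.5, 57.5 and 55.6 CPM at P10. Its groups stood well apart, and it was 4.20-fold lower (log2 fold change -2.07 ± 0.24, SE; edgeR FDR = 1.52e-05). Ltbp1 had 3.80, 2.57 and 1.47 CPM in adults, against 7.46, 17.8 and 24.3 CPM at P10. It was 6.52-fold lower (log2 fold change -2.71 ± 0.52, SE; edgeR FDR = 0.00132), and of its P10 libraries replicate 1 lay well below the other two. Ltbp3 had 56.7, 59.0 and 42.8 CPM in adults, against 68.8, 81.6 and 76.7 CPM at P10. Its fall was small, 1.44-fold (log2 fold change -0.53 ± 0.17, SE; edgeR FDR = 0.0304), and was lost without P10 replicate 3, P10 replicate 4, adult replicate 1 or adult replicate 3 (FDR 0.0591 to 0.145). P10 replicate 1 was the lowest of the P10 libraries for all 4. It was also the lowest of them for the summed fibroblast markers (2643 CPM, against 3396 and 3126 CPM in P10 replicates 3 and 4). The same held for the duct and alpha-cell sums. For the smooth muscle and pericyte sum P10 replicates 1 and 4 all but tied, at 348.8 and 348.3 CPM. P10 replicate 1 was not the lowest for the endothelial, macrophage or Schwann-cell sums. Any link between these levels was not tested.

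**Figure D2:**
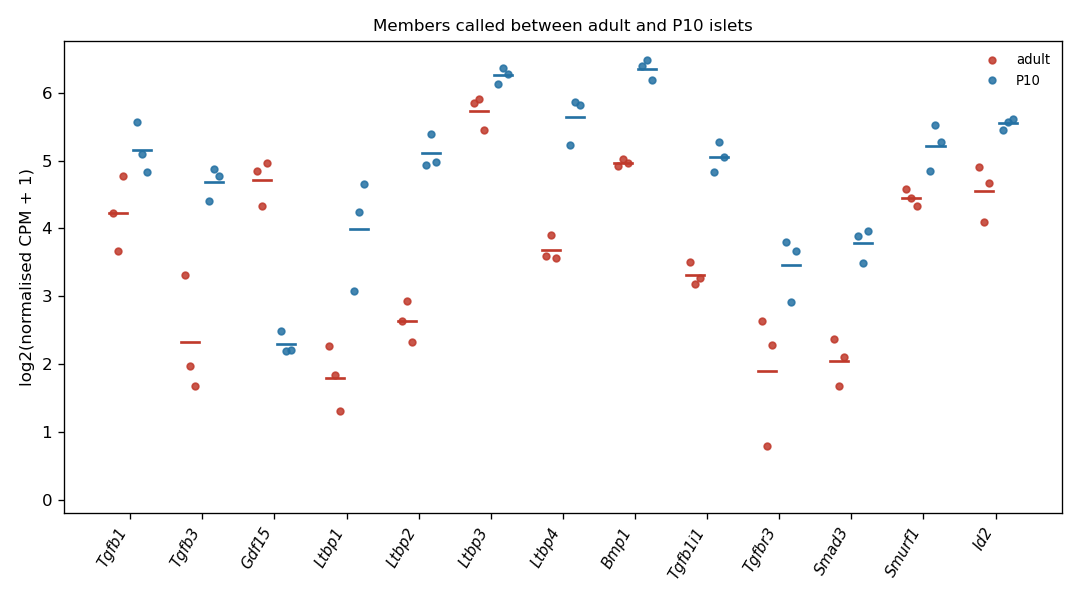
Level of 13 called members as log2(normalised CPM + 1), 1 point per library and a bar at the mean of the points, with adult libraries left of P10 libraries. Gdf15 is the 1 member whose adult points lie above its P10 points, and no member shown has overlapping groups.

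Bmp1 and Tgfb1i1 match by name but are no ligands. Bmp1, a metalloprotease that trims procollagens and can free BMPs and latent TGF-beta from their inhibitors, had 29.4, 31.5 and 30.1 CPM in adults, against 83.0, 88.0 and 72.1 CPM at P10. It was 2.67-fold lower (log2 fold change -1.42 ± 0.17, SE; edgeR FDR = 1.52e-05), with little spread within either age. Tgfb1i1, the focal adhesion adaptor Hic-5, had 10.4, 8.06 and 8.63 CPM in adults, against 27.4, 37.6 and 32.0 CPM at P10, and was 3.59-fold lower (log2 fold change -1.84 ± 0.26, SE; edgeR FDR = 8.06e-05). Tgfbi, a secreted matrix protein, ranged from 34.1 to 66.4 CPM in adults and from 58.8 to 69.8 CPM at P10 and did not pass (edgeR FDR = 0.253). Tgfbrap1, a vesicle trafficking protein first named for binding TGF-beta receptors, had 32.2, 34.1 and 34.7 CPM in adults, against 16.7, 27.9 and 21.1 CPM at P10. Its groups did not overlap, yet it passed only without P10 replicate 3 (edgeR FDR = 0.0586 with all libraries and 0.0274 without that one).

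Among the growth and differentiation factors, Gdf15 was the single member called higher. Gdf15, a distant family member that stressed cells secrete and that signals through the brainstem receptor GFRAL, had 27.7, 19.1 and 30.3 CPM in adults, against 4.61, 3.57 and 3.64 CPM at P10. The lowest adult library lay well above the highest P10 library, and the rise was 6.47-fold (log2 fold change 2.69 ± 0.33, SE; edgeR FDR = 2.05e-05). Gdf11, which signals through activin receptors and is known to act on pancreatic endocrine progenitors, had 16.9, 18.0 and 28.8 CPM in adults, against 32.1, 21.5 and 23.8 CPM at P10, and did not pass (log2 fold change -0.26 ± 0.26, SE; edgeR FDR = 0.511). Gdf9, the oocyte factor, had 25 counts at P10, of which 23 lay in P10 replicate 1, and none in adults. Gdf6 had 4 counts in 1 adult library and none at P10, and Gdf10 had none in adults and 8 at P10. Gdf1, Gdf2, Gdf3 and Gdf7 had no count in any library.

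The activin and inhibin subunits gave no call. Inhbb, which forms activin B, had 10.7, 11.7 and 11.4 CPM in adults, against 8.82, 3.27 and 10.2 CPM at P10. The groups did not overlap but P10 replicate 1 and P10 replicate 4 came close to the adults (log2 fold change 0.62 ± 0.44, SE; edgeR FDR = 0.328). Inhba, the activin A subunit, had 10.0, 4.40 and 7.53 CPM in adults, against 4.48, 10.7 and 8.74 CPM at P10. The 2 ages covered the same range (edgeR FDR = 0.891). Inha, the inhibin subunit, ranged from 5.51 to 9.34 CPM in adults and from 8.82 to 15.8 CPM at P10 (edgeR FDR = 0.227). Inhbe had 3 counts in 1 adult library and Inhbc none anywhere.

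BMP ligand transcripts were scarce at both ages, and 1 of the 9 was tested. Bmp3, an atypical BMP that antagonises others, had 4.15, 4.76 and 1.65 CPM in adults, against 0, 0.594 and 1.94 CPM at P10 and did not pass (log2 fold change 2.15 ± 1.00, SE; edgeR FDR = 0.130). Bmp7 had 2.42, 1.83 and 2.39 CPM in adults, against 7.46, 1.34 and 4.37 CPM at P10, with P10 replicate 3 below the adults. Bmp4, known to enhance insulin secretion in mouse islets, had 8 counts in adults and 44 at P10. That made 0.346, 0.733 and 0.918 CPM in adults, against 2.03, 3.42 and 1.46 CPM at P10, groups that did not overlap. The ratio of normalised counts, adult over P10, was 0.299, with an exact 95% counting interval of 0.122 to 0.643 that covers counting error only. Bmp2 had 4 counts in adults and 27 at P10, a ratio of 0.244 (0.0620 to 0.700), although P10 replicate 1 had none. Bmp6 had 12 counts in adults and 7 at P10, Bmp8a 0 and 6, and Bmp5 0 and 2. Bmp10 and Bmp15 had no count.

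The receptors gave no call in either type. Among the 6 tested type I receptors, Tgfbr1, the TGF-beta kinase ALK5, had 26.6, 25.7 and 17.1 CPM in adults, against 17.2, 24.1 and 28.6 CPM at P10. Its log2 fold change was -0.02 ± 0.27 (SE; edgeR FDR = 0.966), so that 2 standard errors either way span -0.55 to 0.51. Acvr1, the BMP kinase ALK2, had 17.6, 11.7 and 15.4 CPM in adults, against 14.5, 14.0 and 19.9 CPM at P10. Acvr1b, the activin kinase ALK4, had 11.8, 22.4 and 11.9 CPM in adults, against 19.3, 13.1 and 17.0 CPM at P10. For both the ages overlapped, with spans of 2 standard errors from -0.68 to 0.49 and from -0.75 to 0.52. Acvr1c, the kinase ALK7 that is known in rodent beta cells to restrain insulin release, had 0.692, 5.13 and 0.734 CPM in adults, against 4.20, 2.97 and 7.28 CPM at P10. Adult replicate 2 lay within the P10 range and the other two adults under 1 CPM, and the gene did not pass (log2 fold change -1.20 ± 0.79, SE; edgeR FDR = 0.292). Without adult replicate 2 its log2 fold change was -2.69, still short of the threshold (edgeR FDR = 0.0714). Acvrl1, the endothelial kinase ALK1, had 5.53, 5.50 and 2.39 CPM in adults, against 5.97, 12.2 and 11.7 CPM at P10. It passed only without P10 replicate 1 among the left-out libraries (edgeR FDR = 0.0918 with all and 0.0320 without it), and also with library totals alone (edgeR FDR = 0.0125). Bmpr1a, which carries BMP signals in beta cells, ranged from 9.68 to 12.8 CPM in adults and from 10.7 to 16.4 CPM at P10 (edgeR FDR = 0.418). Bmpr1b had no count.

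Of the type II receptors, Tgfbr2, the partner that TGF-beta binds first, lay at the threshold. It had 5.19, 8.80 and 2.75 CPM in adults, against 6.51, 18.4 and 17.7 CPM at P10. P10 replicate 1 fell within the adult range while the other two P10 libraries were above it. The log2 fold change was -1.39 ± 0.50 (SE; edgeR FDR = 0.0502). Tgfbr2 passed without P10 replicate 1 (edgeR FDR = 0.00749) and without adult replicate 2 (edgeR FDR = 0.0337). It also passed with no filter, the stricter one or library totals alone (edgeR FDR = 0.0182, 0.0443 and 0.00504). Bmpr2 had 20.7, 29.7 and 39.5 CPM in adults, against 25.8, 21.1 and 34.2 CPM at P10, with no separation of the ages (edgeR FDR = 0.667). Acvr2a and Acvr2b, the activin type II receptors, were scarce. Acvr2a ranged from 1.73 to 5.32 CPM in adults and from 1.93 to 4.61 CPM at P10, and Acvr2b from 2.42 to 5.50 CPM in adults and from 0 to 3.40 CPM at P10. Their log2 fold changes had spans of 2 standard errors from -1.22 to 1.48 and from -0.96 to 2.71, both wide enough to include a 2-fold rise. The co-receptor Tgfbr3, or betaglycan, which presents TGF-beta2 and inhibin, had 5.19, 0.733 and 3.86 CPM in adults, against 12.9, 6.54 and 11.7 CPM at P10. The fall of 3.09-fold (log2 fold change -1.63 ± 0.56, SE; edgeR FDR = 0.0418) was lost without P10 replicate 1, P10 replicate 4, adult replicate 2 or adult replicate 3 (FDR 0.0678 to 0.125).

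**Figure D3:**
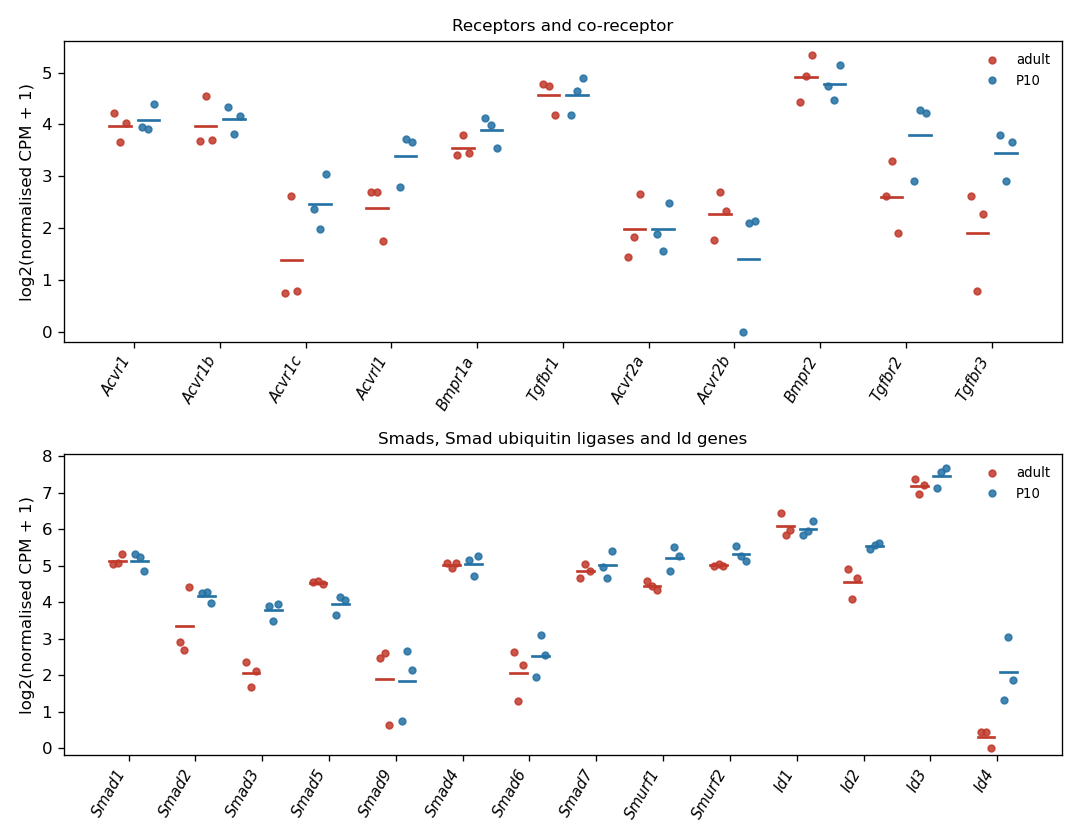
Level of the tested receptors with Tgfbr3 (upper panel) and of the Smads, Smad ubiquitin ligases and Id genes (lower panel) as log2(normalised CPM + 1), 1 point per library and a bar at the mean of the points, with adult libraries left of P10 libraries. The ages do not overlap for Smad3, Smad5, Smurf1, Smurf2, Id2, Id4, Acvrl1 and Tgfbr3. They overlap for the other genes, such as Smad1, Smad4 and Tgfbr1, and Id4 is near 0 in adults.

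Among the Smads, Smad3 alone was called. Smad3, which binds DNA for TGF-beta and activin and is known in mice to restrain insulin gene activity, had 4.15, 2.20 and 3.30 CPM in adults, against 13.8, 10.3 and 14.6 CPM at P10. The groups stood apart and Smad3 was 3.95-fold lower (log2 fold change -1.98 ± 0.43, SE; edgeR FDR = 0.00310). Its partner Smad2 had 6.57, 5.50 and 20.2 CPM in adults, against 17.9, 18.3 and 14.8 CPM at P10. Adult replicate 3 was the highest of all 6 libraries and the other two adults the lowest. Smad2 did not pass (log2 fold change -0.59 ± 0.41, SE; edgeR FDR = 0.309), but without adult replicate 3 it did, at a log2 fold change of -1.49 and an FDR of 0.0107. It also passed with library totals alone (edgeR FDR = 0.0460). Whether the changes of Smad2 and Smad3 differ was not tested.

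None of the BMP Smads was called. Smad1 had 31.8, 32.6 and 38.7 CPM in adults, against 39.2, 36.7 and 27.7 CPM at P10 (log2 fold change -0.0052 ± 0.20, SE; edgeR FDR = 0.988). Smad5 had 22.5, 22.7 and 21.5 CPM in adults, against 11.5, 16.8 and 15.5 CPM at P10. Every adult library of Smad5 lay above every P10 library, but it did not pass (log2 fold change 0.61 ± 0.26, SE; edgeR FDR = 0.0992). Smad9 ranged from 0.551 to 5.13 CPM in adults and from 0.678 to 5.35 CPM at P10. Smad4, the shared partner, had 32.9, 29.7 and 32.5 CPM in adults, against 34.9, 25.6 and 37.6 CPM at P10, a log2 fold change of -0.04 ± 0.21 (SE; edgeR FDR = 0.915). The span of 2 standard errors for Smad4, -0.45 to 0.38, leaves out a 2-fold difference either way, as does that of Smad1, -0.41 to 0.40.

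Of the inhibitory Smads, Smad7, which recruits ubiquitin ligases to the type I receptor, had 24.6, 31.9 and 27.9 CPM in adults, against 30.1, 24.5 and 41.3 CPM at P10 (edgeR FDR = 0.623). Smad6, the inhibitor of BMP signals, ranged from 1.47 to 5.19 CPM in adults and from 2.85 to 7.58 CPM at P10 (edgeR FDR = 0.588). Of the ubiquitin ligases that mark Smads and receptors for breakdown, Smurf1 had 22.8, 20.9 and 19.1 CPM in adults, against 27.8, 45.0 and 37.6 CPM at P10. The groups did not overlap, and the fall of 1.76-fold (log2 fold change -0.82 ± 0.23, SE; edgeR FDR = 0.0151) was lost without P10 replicate 3, P10 replicate 4 or adult replicate 3 (FDR 0.0503 to 0.0989). Smurf2 had 30.8, 32.3 and 30.7 CPM in adults, against 46.0, 37.3 and 34.2 CPM at P10, and did not pass (edgeR FDR = 0.229).

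The Id genes, which encode helix-loop-helix proteins that block DNA binding by their partners, were called in 1 of the 3 tested members. Id1 had 86.1, 56.1 and 61.5 CPM in adults, against 56.0, 60.9 and 73.3 CPM at P10, with overlap throughout (log2 fold change 0.10 ± 0.18, SE; edgeR FDR = 0.738). Id2 had 29.0, 16.1 and 24.4 CPM in adults, against 42.7, 46.7 and 48.1 CPM at P10. It was 1.96-fold lower (log2 fold change -0.97 ± 0.22, SE; edgeR FDR = 0.00391), with no overlap. Id3 had 165, 123 and 149 CPM in adults, against 140, 190 and 203 CPM at P10, and passed only without P10 replicate 1 among the left-out libraries (edgeR FDR = 0.211 with all and 0.0442 without it), and with library totals alone (edgeR FDR = 0.00308). Id4 had 2 counts in adults and 71 at P10, or 0.346, 0.367 and 0 CPM in adults, against 1.49, 7.28 and 2.67 CPM at P10. The normalised counts, P10 over adult, had a ratio of 21.6 with an exact 95% counting interval of 5.75 to 181. The filter on low counts left Id4 untested, and it was called lower without that filter (edgeR FDR = 0.0132) and by DESeq2 (adjusted p = 0.0146).

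The secreted antagonists were scarce. Fst, the activin trap follistatin, had 0.692, 0.367 and 1.29 CPM in adults, against 5.15, 2.23 and 1.94 CPM at P10. No adult library reached a P10 library, but Fst did not pass (log2 fold change -1.87 ± 0.81, SE; edgeR FDR = 0.104). Grem1 ranged from 0 to 2.93 CPM in adults and from 0.971 to 6.51 CPM at P10 (edgeR FDR = 0.257). Chrd had 14 counts in adults and 37 at P10, with P10 replicate 1 far above the other two P10 libraries, and Nog had none in adults and 7 in 1 P10 library.

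**Figure D4:**
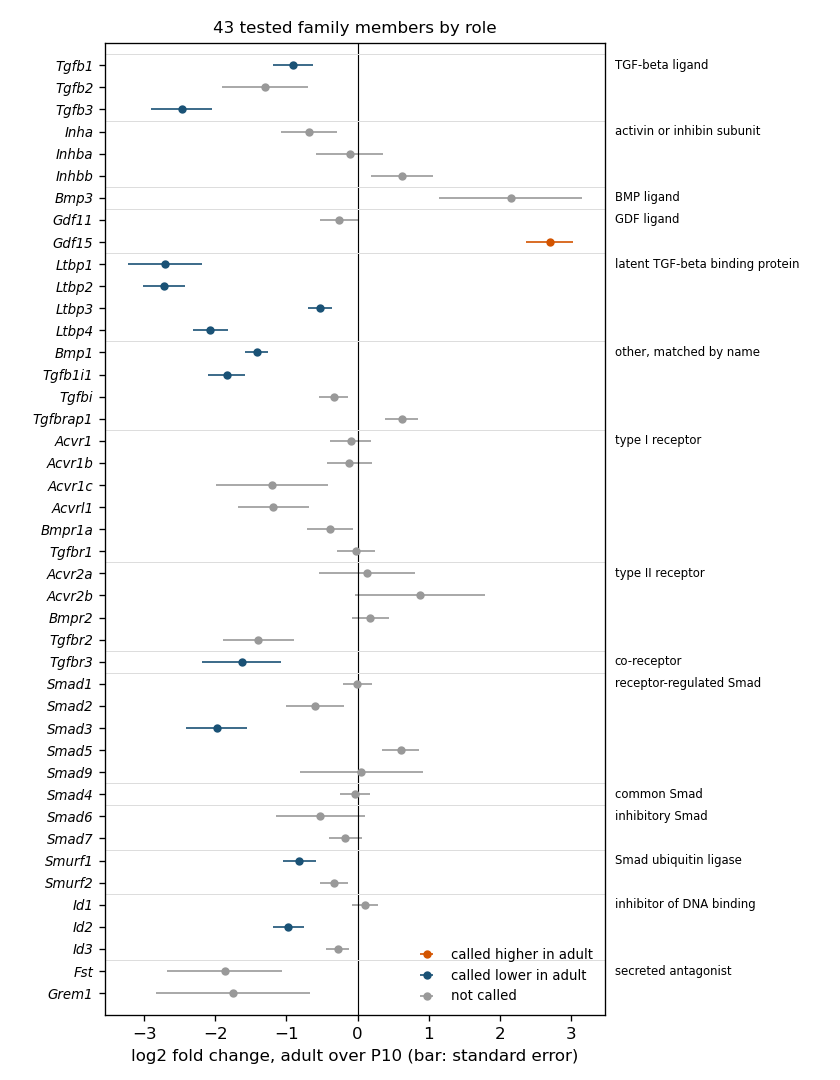
Log2 fold change, adult over P10, of 43 tested members in order of role, with bars of 1 standard error, where a value right of 0 means higher in adults. The 4 latent TGF-beta binding proteins lie left of 0, from -2.72 for Ltbp2 to -0.53 for Ltbp3, and Gdf15 is the called member right of 0, at 2.69.

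Other genes of the pathway came from 7 lists of 128 genes, chosen by function with earlier results of these data known. Of the 90 tested, 40 were called lower and 9 higher, or 44.4% and 10.0%, against 13.8% and 12.5% of all tested genes. These shares describe the lists and are no independent test of the pathway. Among genes of matrix storage and ligand activation 11 of 18 were lower and 3 higher, or 61.1% and 16.7%. Bgn, the proteoglycan biglycan, fell to 37.8 ± 8.77 CPM in adults, against 282 ± 31.8 CPM at P10 (SD, n = 3 each), with a log2 fold change of -2.92 ± 0.17 (SE; edgeR FDR = 8.60e-09). The matrix metalloproteases Mmp2 and Mmp14 were 6.70-fold and 5.79-fold lower (edgeR FDR = 8.85e-09 and 2.14e-08). Pcsk6, a convertase that cleaves family precursors, rose 2.73-fold, to 31.6 ± 1.82 CPM in adults, against 11.6 ± 4.91 CPM at P10 (SD, n = 3 each; edgeR FDR = 0.00179). The fibroblast sums given above differed 11.8-fold in the same libraries, and their part in these results was not tested.

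Of the co-receptors 4 of 7 were lower, or 57.1%, against 13.8% of all tested genes. Nrp1, a semaphorin and VEGF receptor that also binds TGF-beta, was 4.18-fold lower (edgeR FDR = 4.80e-05). Gpc3, the proteoglycan glypican-3, had 1.09 ± 1.28 CPM in adults, against 13.1 ± 3.40 CPM at P10 (SD, n = 3 each). It was 9.96-fold lower (edgeR FDR = 0.000812), and without adult replicate 3, which held 14 of its 16 adult counts, 34.5-fold lower. Eng, the endothelial co-receptor endoglin, was 1.49-fold lower (edgeR FDR = 0.00891), a call lost without adult replicate 1 (FDR = 0.0535). Of 8 tested antagonists and binding proteins 4 were lower, or 50%, against the same 13.8%. Fstl1, a secreted follistatin-like protein, was 5.15-fold lower (edgeR FDR = 7.58e-07), and Htra1, a serine protease, 2.26-fold lower (edgeR FDR = 0.000329). Fstl5 had 4 counts in adults, all in 1 library, and 92 at P10, and its call (edgeR FDR = 0.0297) was lost without adult replicate 1 or adult replicate 3 (FDR = 0.137 and 0.111).

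Of 29 Smad partners and intracellular regulators 5 were higher and 3 lower, or 27.6% in either direction, close to the 26.3% of all tested genes. Hipk2, a nuclear kinase, rose 2.19-fold, to 69.4 ± 8.56 CPM in adults, against 31.8 ± 2.48 CPM at P10 (SD, n = 3 each; edgeR FDR = 0.000178). Tob1, an antiproliferative protein that dampens BMP Smads, rose 1.78-fold (edgeR FDR = 0.00958), and Crebbp, an acetyltransferase coactivator, 1.54-fold (edgeR FDR = 0.0127). Neither passed with library totals alone (edgeR FDR = 0.252 for Tob1 and 0.589 for Crebbp), and Crebbp did not pass without P10 replicate 3 (FDR = 0.0608). Tgif1, a Smad corepressor, was 3.26-fold lower (edgeR FDR = 0.00152). The 1 tested gene of the list of other ligands, the neurotrophic factor Nrtn, which is no Smad ligand, was not called (edgeR FDR = 0.745).

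Of 20 tested transcripts known to respond to TGF-beta or activin 13 were lower and 1 higher. These made 65% and 5%, against 13.8% and 12.5% of all tested genes. Col1a1, a collagen chain, was lower by a log2 fold change of -3.90 (edgeR FDR = 8.18e-11), Postn, periostin, 8.02-fold (edgeR FDR = 5.80e-09) and Tnc, tenascin C, 9.06-fold (edgeR FDR = 2.36e-08). Col1a1 and Postn also stand in the fibroblast list, and Tagln and Acta2, lower too, in the smooth muscle list. Other lists share genes as well: Dcn stands in the matrix storage and fibroblast lists, and Sox9 in the BMP response and duct lists. Timp1, a metalloprotease inhibitor, was the higher one, at 331 ± 39.3 CPM in adults, against 247 ± 51.0 CPM at P10 (SD, n = 3 each; edgeR FDR = 0.0489). Its groups overlapped, and the call was lost without P10 replicate 3, P10 replicate 4, adult replicate 2 or adult replicate 3 (FDR 0.109 to 0.183), while its log2 fold change turned to -0.07 with library totals alone. Of 8 tested transcripts known to respond to BMP 5 were lower, or 62.5%, against 13.8% of all tested genes. Among them were the Notch effector Hes1, 2.96-fold lower (edgeR FDR = 0.00187), and the Notch modifier Lfng, 3.26-fold (edgeR FDR = 0.00381). The osteoblast regulator Runx2 was 5.46-fold lower (edgeR FDR = 0.00723), or 8.50-fold without adult replicate 3. Many of these transcripts answer other signals as well.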

How the data were processed

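Islet mRNA of 3 adult and 3 P10 libraries was sequenced single-end without strand, per the labels' protocols. The authors deposited raw read counts per gene symbol, 1 file per library. The submitters' processing notes name Bowtie2, TopHat2 (2.0.10), HTSeq, DESeq and edgeR, without their roles, and the rn5 build. The 5 counter rows stayed out of library sizes and tests. Alignments that were not unique made up 15.1% to 17.8% of all rows' counts in adults and 23.4% to 27.7% at P10. Ambiguous reads made up 0.319% to 0.374% in adults and 0.391% to 0.474% at P10. Both shares were thus higher in every P10 library than in any adult library, and their effect on the comparison was not tested. Reads of overlapping or antisense genes cannot be told apart. A deposited merged table was not used.

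Genes kept by filterByExpr (minimum count 10, total 15) were tested with edgeR 4.0.16 in R 4.3.3, TMM factors, a quasi-likelihood fit with age as its term, and Benjamini-Hochberg adjustment over 10124 genes. A standard error was taken as |log2 fold change| / √F. Ratios of scarce members carry exact 95% counting intervals. The biological coefficient of variation was 23.7%. In 9959 genes simulated on the adult against P10 comparison, 39 of 99 changed 2-fold and 82 of 98 changed 4-fold were recovered, with 7 false calls among 9762. A far smaller share of genes was changed there than the 26.3% called in the data. The figures also pool genes of all levels. They are therefore no recovery rates for these members.

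Members, roles and lists were chosen with earlier results of these data known. The counts cover all members, but 1 member's own result is not reported here. The genes given library by library are the called members, a list taken whatever the result, and others named for their role or after their values were seen. From each pathway list up to 3 genes with the smallest p in its main direction and 1 in the other were named. Alternatives were leaving out each library in turn, a replicate block, DESeq2 1.42.0, no filter, at least 5 CPM in 3 libraries, and scaling by relative log expression, by library totals or with hormone and acinar genes set aside.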

Additional observations from a re-analysis of the deposited data

How the results depend on the processing

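The 14 called members kept their direction in all 13 alternatives, and Bmp1, Gdf15, Ltbp2, Ltbp4, Tgfb1i1 and Tgfb3 were called in each. All 14 were called again by DESeq2, with no filter, with the stricter filter and under each of the 3 other scalings. Library totals alone gave 25 members lower, a median log2 fold change of -0.95 and 3 other pathway genes higher, beside 35.7% of all tested genes lower, 3.39% higher and a median of -0.52 over all of them. The members it added were Acvrl1, Bmpr1a, Fst, Gdf11, Id3, Inha, Smad2, Smad7, Smurf2, Tgfb2, Tgfbi and Tgfbr2. The median was -0.52 with DESeq2 and -0.59 with no filter, both of which tested more scarce members. Leaving out single libraries gave 1 to 2 members higher, 9 to 15 lower, medians of -0.69 to -0.37, and 5 to 8 other pathway genes higher.

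The titles share replicate numbers 1 and 3 between the ages but nothing says that these pair the animals, and same-numbered libraries did not deviate together (correlations of -0.027 and -0.0043). With the replicate block, which leaves 1 residual degree of freedom, 5 members were lower (Bmp1, Ltbp2, Ltbp4, Tgfb1i1 and Tgfb3), 1 was higher, and 4 other pathway genes were higher, beside 7.20% of all tested genes lower and 6.71% higher. Ltbp1, Smad3 and Id2 were among those not called there (FDR 0.0602, 0.09996 and 0.101). Some uncalled members changed sign. The block gave log2 fold changes of 0.21 for Acvr1, 0.30 for Inhba, 0.13 for Smad4 and 0.058 for Tgfbr1. Library totals gave -0.34 for Acvr2a, -0.31 for Bmpr2 and -0.39 for Id1. Smad1 was at 0.0039 with relative log expression factors, 0.0059 with DESeq2 and 0.0036 with no filter. Without single libraries the ranges crossing 0 were -0.22 to 0.077 for Acvr1, -0.47 to 0.055 for Acvr1b, -0.49 to 0.50 for Acvr2a, -0.087 to 0.38 for Bmpr2, -0.10 to 0.22 for Id1, -0.40 to 0.18 for Inhba, -0.13 to 0.11 for Smad1, -0.18 to 0.076 for Smad4, -0.33 to 0.047 for Smad7 and -0.19 to 0.18 for Tgfbr1. The cause was not tested. Depth limits the scarce members most: 13 with counts went untested, mainly BMP, GDF and inhibin ligands.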
